A study of Bos taurus and Sus scrofa with 6 samples.

Results

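Ribosomal protein (RP) genes were followed across the cell types of the prepubertal testis in cattle and pigs. Members were chosen by name: every gene symbol that starts with RPL or RPS and a digit, plus RPLP0, RPLP1, RPLP2 and RPSA, without the RPS6K kinases. The cattle gene table listed 82 such symbols of 19889 (33 RPS and 49 RPL, from 94 features), and the pig table listed 59 of 22664 (24 RPS and 35 RPL, from 67 features). The tables shared 55 members and held 86 in either species, so the RP sums of the species are not sums over the same genes. By the same rule the list took in RPS19BP1, which encodes an RPS19-binding protein and no ribosomal subunit, and the pig readthrough locus RPL17-C18orf32. Features that share a symbol were summed, which applied to 8 members in each species. RPL39L, RPS4Y2 and RPS6 were not analysed here in either species.

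A cytoplasmic ribosome has a small subunit that decodes the mRNA and a large subunit that forms peptide bonds, and each subunit holds a fixed set of proteins around its ribosomal RNA. RP mRNAs start with a C followed by a run of pyrimidines, the TOP motif, through which growth signalling sets their translation. A few RP genes lie on the X chromosome (RPL10, RPL36A, RPL39 and RPS4X), and several of these have autosomal copies such as RPL10L. Because the X chromosome is silenced in spermatocytes, such copies are best known from the male germ line.

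Testes were taken by castration from 3 pigs of mixed breed at an age of 3 months and from 3 Holstein cattle at 4.5 months, and about 8000 live testicular cells of each were loaded on a droplet instrument that tags each captured mRNA molecule with a unique molecular identifier (UMI). The animals received no treatment, and all cells of the tissue entered without a sort. Breed, age and gene table differ together with species and cannot be told apart. Germ-like and other cells were compared in their RP share of UMIs by a two-sided exact permutation test of 3 against 3 values. Both sets of values come from the same 3 animals, and the test does not use that pairing. Its p cannot fall below 0.1. Within each species the sample titles give testis number 2 to the libraries called 2 and 3 here, under different animal codes. They were taken as separate animals, and if they shared an animal the p-values would measure in part technical spread.

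The deposited tables held 5805223 to 53325608 UMIs per cattle library and 6245189 to 40099873 per pig library. After cell calling 17482 cattle cells and 9206 pig cells remained, with a median of 788 to 4462.5 UMIs per cell in the cattle libraries and 889.5 to 5870 in the pig libraries. Cattle 1 and pig 1 were the shallow libraries. Clustering without the RP genes gave 22 clusters in cattle and 26 in pigs, of which 12 and 13 drew over 90% of their cells from 1 library. Markers named the clusters as germ-like, as Sertoli-like, myoid-like or Leydig-like, as endothelial-like, or as macrophage-like or lymphocyte-like, and 383 cattle cells and 1991 pig cells stayed unnamed. The myoid-like class joins stromal and peritubular cells, as its markers included TCF21 and DCN beside ACTA2 and TAGLN. In the germ-like cluster of cattle 8 of the 10 germ cell markers listed counted, with PRAME and DAZL among its leading genes, and in the 4 germ-like clusters of the pig 6 to 9 of 9 did. Libraries shared 8 to 58 cell barcodes over the 15 pairs, against 9.6 to 65.1 if barcodes had been drawn independently. Germ-like cells numbered 520 in cattle (84, 217 and 219 in cattle 1, 2 and 3) and 1568 in pigs, and they were the deepest cells, with library medians of 3554.5 to 16837 UMIs in cattle and 2811 to 14818 in pigs.

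The annotated start of the gene is shown for the pig members on which the germ-like results turn. This sets the pyrimidine runs of members that were low in germ-like cells beside those of members that were high. Each window is 30 bases of Sscrofa11.1 on the sense strand, 10 before and 20 from the first base of the gene as annotated by RefSeq. A transcript of the gene may start elsewhere. The capitals mark the longest run of C and T. The 5 members with the largest decrease in germ-like cells, of 19 called lower, were RPS4X (chrX:58155160-58155189, minus strand), RPL10 (chrX:124927239-124927268, plus strand), RPL36AL (chr1:179477801-179477830, minus strand), RPL7 (chr4:62602420-62602449, plus strand) and RPL23 (chr12:23279955-23279984, plus strand).
RPS4X: gaCCTTCTTTTCTCCgcgcgccggaaggag
RPL10: gtgggagcgCCTCTTTTCCTTCggcgcggt
RPL36AL: agagcagagcgagaCCCggaacgtggacat
RPL7: gcgctaaCTTCCTCTTTCCCggctggaacc
RPL23: ttcttaCTTCCTTTTCgtccttgtcgggcc

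The 5 members with the largest increase, of 8 called higher, were RPSA (chr13:24072541-24072570, plus strand), RPLP0 (chr14:40223924-40223953, minus strand), RPLP2 (chr2:507881-507910, plus strand), RPL26L1 (chr16:51276673-51276702, minus strand) and RPL10L (chr1:176604097-176604126, minus strand).
RPSA: ctgCCCagaccggggtccacacggcgttgt
RPLP0: tacagCCCTCCTCTCgccaggcgtcctcgt
RPLP2: gcgccggcgTCTTCCTTTCTgtccctgacg
RPL26L1: cctcaCTTCCggccctgagcagcgcatcgt
RPL10L: agcggcccacaggagaataaaCCCCTCCgc

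Of the 5 lower members shown, 4 had a run of 10 or more pyrimidines and RPL36AL had a longest run of 3. Of the 5 higher members shown, RPLP0 and RPLP2 had a run of 10 or more. A C within 5 bases of the annotated start and followed by at least 5 pyrimidines, read on the sense strand, was found in 23 of 84 RP windows of the pig annotation (27.4%) and in 2162 of 19475 windows of other protein-coding genes. The windows depend on where the annotation places the start, and a match or its absence is a description of the letters only.

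The RP share of all UMIs spanned a wider range over the named cell types in cattle than in pigs, which was not tested between the species. In cattle lymphocyte-like cells spent 42.6% ± 5.57 of their UMIs on RP genes (SD, n = 3), Sertoli-like cells 30.8% ± 4.08, endothelial-like cells 29.9% ± 3.54, myoid-like cells 29.2% ± 1.31 and Leydig-like cells 26.4% ± 1.75. Germ-like cells (20.5% ± 2.04) and macrophage-like cells (19.7% ± 0.531) were lowest and overlapped each other. The groups from Sertoli-like to Leydig-like also overlapped, and all 3 lymphocyte-like sums lay above every other sum. In pigs the 7 types ran from 22.3% ± 1.90 in lymphocyte-like to 17.0% ± 2.87 in Leydig-like cells, with germ-like cells at 21.4% ± 2.01, and neighbours in this order overlapped. Mitochondrial genes took 0.604% to 9.53% of the UMIs of the cattle sums and 1.29% to 4.55% of the pig sums, highest in cattle Sertoli-like and Leydig-like cells. In cattle, barcodes with at most 50 UMIs, which hold cell-free RNA, had 19.5%, 28.9% and 28.5% RP UMIs in cattle 1, 2 and 3, against 26.2%, 31.6% and 30.6% in the cells.

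**Figure D1:**
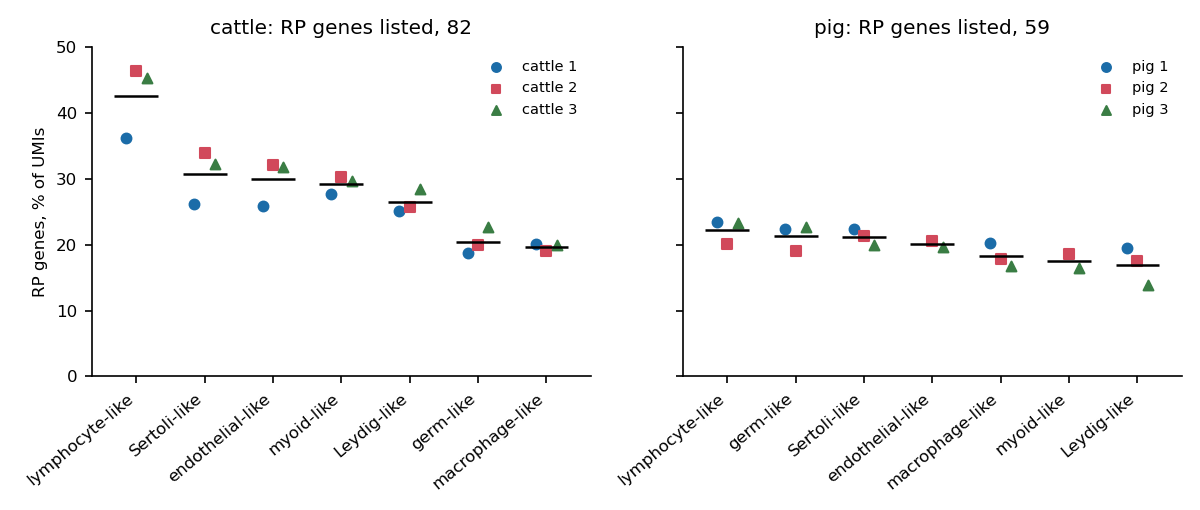
RP share of all UMIs (percent, vertical axis) by named cell type, with a point for each animal and a line at the mean; myoid-like and endothelial-like sums of pig 1 had under 20 cells and are not drawn. In cattle lymphocyte-like cells stand highest and germ-like and macrophage-like cells lowest, whereas in pigs the named types lie between 13.9% and 23.5%.

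Germ-like cells of every bovine animal had a smaller RP share than the remaining cells of the same testis. The shares were 18.7%, 20.02% and 22.7% in germ-like cells of cattle 1, 2 and 3 and 27.0%, 32.6% and 31.6% in the other cells. The groups did not overlap, and the difference of means was -9.94 percentage points with the smallest p that the exact permutation test allows (p = 0.1, n = 3). In pigs the shares were 22.3%, 19.1% and 22.7% in germ-like and 22.03%, 20.7% and 18.2% in other cells. These overlapped, with a difference of 1.06 percentage points (exact permutation p = 0.5, n = 3) that rested on pig 3, without which it was -0.681. The other cells of pig 2 included 253 of the 261 cells of an unnamed cluster whose leading genes were germ cell genes (UCHL1, COX8C and ELAVL2 among them) but which counted 7 of the 9 myoid markers. Its RP share in pig 2 was 19.1%. Without that cluster the pig difference was 1.03 percentage points, and without all unnamed cells it was 1.57 (exact permutation p = 0.5 and 0.3, n = 3). Unnamed cells entered no test of single genes. Over the 55 shared members alone the difference was -5.71 percentage points in cattle and 1.64 in pigs.

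Each member was then compared between a cell type and the equally weighted mean of the other types, over the UMI sums of each animal and type, with edgeR's quasi-likelihood test across all genes, TMM scaling and an adjusted p under 0.05 as the call. Values per animal are given as CPM, the UMIs of a gene per 1000000 UMIs of the sum. In cattle all 82 members were tested among 14102 genes, and in pigs 58 among 15106, as RPL36 had 1 UMI in all. All types of 1 animal share its library, so a fit with the animal as replicate block is given beside a count that it moved by over 1.5 times. Unless stated, the shares of all genes called are those of the main fit at the adjusted threshold. Calls over all genes moved in the other fits as well, and all genes were not counted at an unadjusted p.

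**Figure D2:**
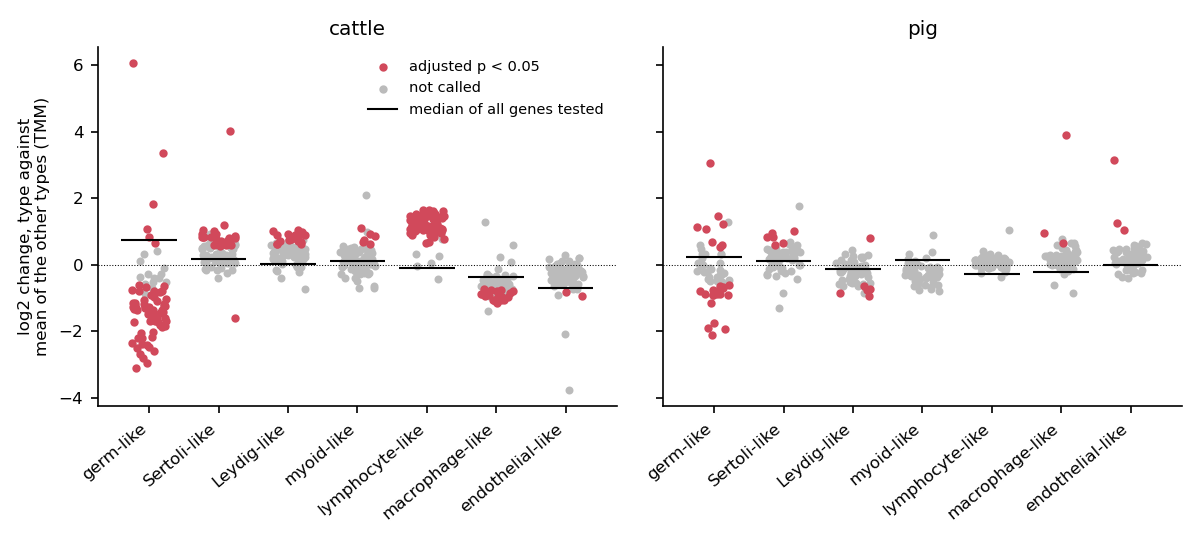
Log2 change of each RP gene (point) in each cell type against the mean of the other types, with members called by edgeR in red and a line at the median of all genes tested; members with an SE of 10 or more are not drawn. The cattle germ-like members lie mostly below the line and the cattle lymphocyte-like members above it, whereas the pig members scatter around 0. The median of the pig germ-like members (-0.27) is also below the line (0.24).

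In cattle germ-like cells 61 of 82 RP genes were lower and 6 were higher than in the mean of the other types, where 14.9% and 40.8% of all genes were called in those directions. The median RP change was -1.25 on the log2 scale, and the median of all genes was 0.75. The all-gene median depends on the scaling. It was 1.40 with library size alone and 0.27 with TMM factors computed without RP and mitochondrial genes, and the RP median was -0.61 and -1.74 in those fits. The members called were 10 higher and 44 lower in the first of these fits, where 7713 and 1236 of all 14102 genes were. In the second fit they were 4 higher and 70 lower, where 4293 and 2978 of all genes were. The RP median was below the all-gene median in each of these fits. A change of scaling moves all genes by about the same amount, so this gap is no check of the scaling. In 20 members all 3 germ-like sums lay below all 18 sums of the other types, and in 4 members they lay above. The same was not counted over all genes. The count of lower members was 39 without cattle 3, and the count of higher members was 2 without cattle 2.

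The members with the largest decrease in cattle germ-like cells were RPL27A, RPS4, RPL7, RPS12 and RPL10. RPL27A, a large subunit protein, stood at 1017, 968 and 1170 CPM in germ-like cells of cattle 1, 2 and 3, and between 3712 and 8792 CPM in the other sums. RPL27A was 8.59-fold lower (log2 -3.10, SE 0.31, edgeR adjusted p = 5.49e-09). RPS4, a small subunit protein, stood at 566, 460 and 624 CPM against 1351 to 4291 CPM, and was 7.72-fold lower (log2 -2.95, SE 0.29, edgeR adjusted p = 4.20e-09). The symbol RPS4 is an older name of both RPS4X and RPS4Y1 in RefSeq's cattle gene table (ARS-UCD2.0), and RPS4Y1 is listed beside it here, so that the locus behind RPS4 could not be settled by its name.

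RPL7, also of the large subunit, stood at 650, 518 and 686 CPM in cattle germ-like cells and between 1644 and 3824 CPM elsewhere. RPS12 stood at 1563, 1965 and 2507 CPM in germ-like cells and between 5226 and 15185 CPM elsewhere, and RPL10, an X-linked protein that joins the large subunit late in its assembly, at 2014, 1898 and 1993 CPM against 4157 to 13190 CPM. None of these 3 overlapped with another cell type. RPL7 was 7.02-fold lower (log2 -2.81, SE 0.32), RPS12 6.38-fold (log2 -2.67, SE 0.35) and RPL10 5.96-fold (log2 -2.58, SE 0.26), with edgeR adjusted p of 4.65e-08, 4.39e-07 and 9.16e-09. RPL36A was lower as well, at 596, 728 and 899 CPM in germ-like cells against 1830 to 3565 CPM (log2 -2.50, SE 0.32, edgeR adjusted p = 3.11e-07). The cattle symbols RPL36A and RPL39 sum 3 and 4 features, so their counts may not come from the X-linked genes alone. RPL39 (log2 -2.48, SE 0.95, edgeR adjusted p = 0.0292) was low throughout cattle 1, at 47.2 CPM in germ-like cells and at most 104 CPM in its other types, but stood at 165 and 334 CPM in germ-like cells of cattle 2 and 3 and between 604 and 1345 CPM in their other types.

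The 6 members that were higher in cattle germ-like cells were RPSA, RPL28, RPL26L1, RPS4Y1, RPL3L and RPL10L. RPSA, a small subunit protein also known as the laminin receptor, stood at 17326, 14260 and 12689 CPM in germ-like cells and between 3326 and 7963 CPM in the other sums, which did not overlap. RPSA was 1.78-fold higher (log2 0.83, SE 0.19, edgeR adjusted p = 0.000532), a change close to the 0.75 of the median gene on this scale. RPL28 stood at 5136, 5494 and 5637 CPM against 1498 to 3367 CPM (log2 0.67, SE 0.22, edgeR adjusted p = 0.0109).

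RPL26L1, a copy of RPL26, stood at 502, 468 and 388 CPM in cattle germ-like cells and between 68.8 and 229 CPM elsewhere, and was 2.12-fold higher (log2 1.08, SE 0.18, edgeR adjusted p = 1.02e-05). RPS4Y1 stood at 357, 395 and 353 CPM against 33.9 to 214 CPM and was 3.54-fold higher (log2 1.83, SE 0.22, edgeR adjusted p = 1.44e-07). Both lay outside the range of all other types. RPS4Y1 is read by its symbol alone, and the chromosome of the cattle feature was not checked. RPL3L, best known from muscle, rested on 96 UMIs in all cattle cells, with 3.37, 4.59 and 3.21 CPM in germ-like sums, 2.48 to 4.52 CPM in Sertoli-like sums and 0 UMIs in lymphocyte-like, macrophage-like and endothelial-like sums, and its fitted change (log2 3.36, SE 0.87, edgeR adjusted p = 0.00268) is set by those zeros.

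RPL10L was called higher in cattle germ-like cells (log2 6.06, SE 0.97, edgeR adjusted p = 1.11e-05), but that call rests on 1 cell. All 240 RPL10L UMIs of the cattle germ-like cells were in 1 cell of cattle 3, which held 178182 UMIs in total against a median of 16837. RPL10L was found in 0 of 84 germ-like cells of cattle 1 and 0 of 217 of cattle 2, which allows shares of up to 4.30% and 1.69% (exact 95% binomial limits, counting error only). These limits are on cells with an RPL10L UMI, not on cells that express the gene. With a minimum of 500 UMIs per cell the RPL10L change was -2.81, and the cause was not tested.

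**Figure D3:**
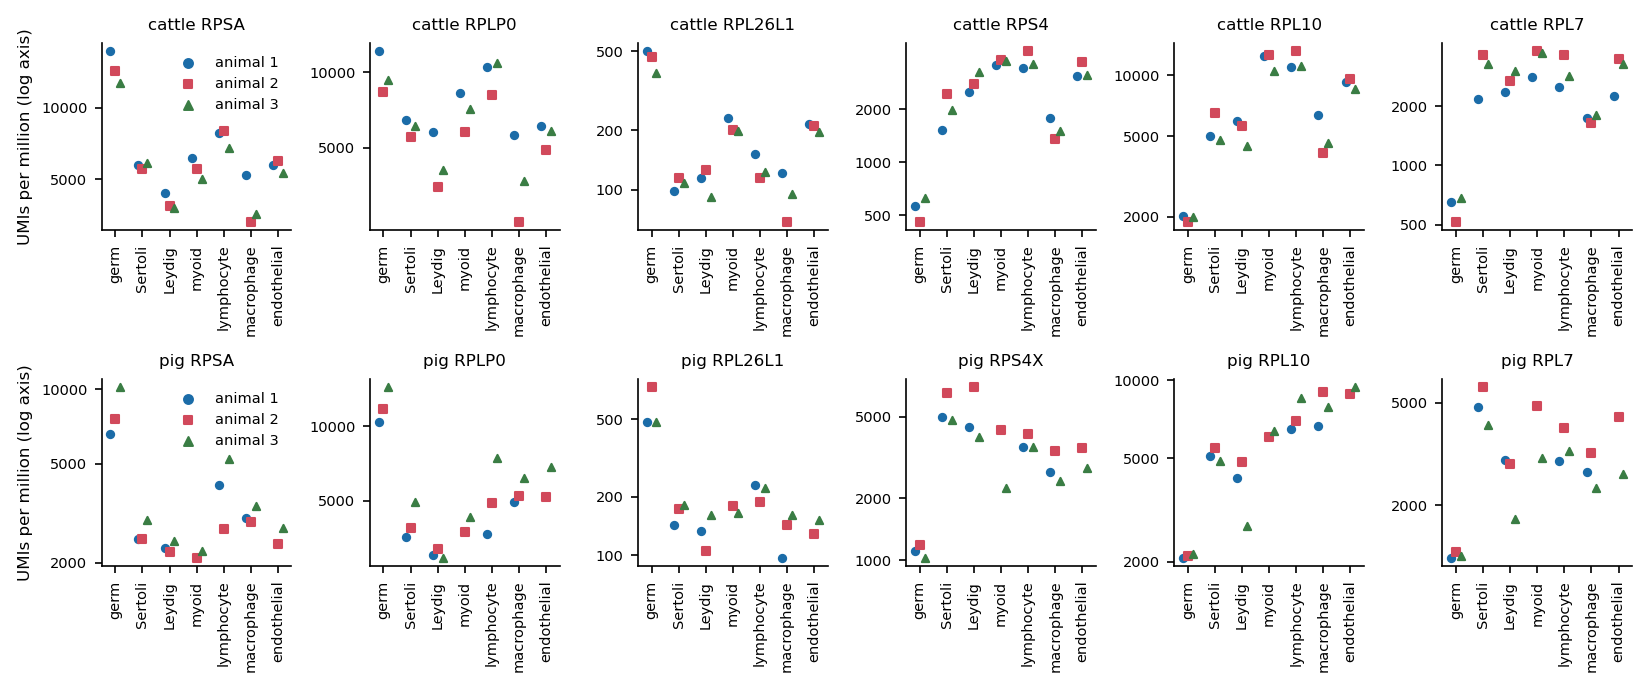
CPM (log axis) of 6 RP genes in the 7 cell types, with a point for each animal, cattle above and pig below; RPS4 is drawn for cattle and RPS4X for pig. RPSA and RPL26L1 are highest and RPL10, RPL7 and RPS4 or RPS4X lowest in germ-like cells of all animals, and RPLP0 overlaps with lymphocyte-like cells in cattle only.

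With the RP sum as library size, members were compared by their part of the RP pool. On this scale 21 cattle members were higher and 26 lower in germ-like cells, where 64% and 5.49% of all genes were called, and 15 were lower without cattle 2. RPSA took 5.60% to 9.28% of the RP UMIs of germ-like cells and 1.34% to 2.61% in the other types, and was 3.99-fold higher (log2 1.995, SE 0.16, edgeR adjusted p = 2.16e-11). RPLP0, the base of the stalk that binds elongation factors, took 4.11% to 6.49% against 1.33% to 2.97% and was 2.41-fold higher (log2 1.27, SE 0.20, edgeR adjusted p = 3.88e-06). RPLP0 did not differ on the TMM scale (log2 0.12, SE 0.23, edgeR adjusted p = 0.711), where its sign turned in 6 of the alternatives. RPLP2, its partner in the stalk, was lower on the TMM scale (log2 -1.13, SE 0.34, edgeR adjusted p = 0.00614) and stood at 0.02 (SE 0.20, edgeR adjusted p = 0.951) relative to the RP sum. RPLP1, the remaining stalk protein, was likewise lower on the TMM scale (log2 -0.96, edgeR adjusted p = 0.00583) and stood at 0.20 on the RP scale (edgeR adjusted p = 0.238, and 0.0371 with the replicate block). RPL27A (log2 -1.95, SE 0.17), RPS4 (-1.80, SE 0.19), RPL7 (-1.65, SE 0.19), RPS12 (-1.54, SE 0.19) and RPL10 (-1.44, SE 0.19) were lower within the RP pool as well.

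In pig germ-like cells fewer members were called. Of 58 members 8 were higher and 19 lower on the TMM scale, where 30.4% and 20.4% of all genes were called, and the median RP change was -0.27 against 0.24 for all genes. This split depended on the scaling. By library size alone 15 members were higher and 13 lower, where 6156 and 2248 of all 15106 genes were. With TMM factors computed without RP and mitochondrial genes 9 were higher and 7 lower, where 5051 and 2557 of all genes were. The all-gene medians were 0.60 and 0.39 and the RP medians 0.06 and -0.07 in those fits. The RP median was below the all-gene median in each of these pig fits too, a gap that a change of scaling could hardly move. The count of lower members was 4 without pig 2 and 10 without pig 3.

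The pig members with the largest decrease were RPS4X, RPL10, RPL36AL, RPL7 and RPL23. X-linked RPS4X stood at 1111, 1179 and 1028 CPM in germ-like cells of pig 1, 2 and 3 and between 2241 and 6968 CPM in the 16 sums of the other types, and was 4.35-fold lower (log2 -2.12, SE 0.28, edgeR adjusted p = 1.21e-06). X-linked RPL10 stood at 2073, 2107 and 2147 CPM against 2736 to 9419 CPM and was 3.82-fold lower (log2 -1.93, SE 0.27, edgeR adjusted p = 2.27e-06). RPL36AL, the autosomal copy of RPL36A, stood at 239, 230 and 258 CPM against 438 to 1009 CPM (log2 -1.89, SE 0.28, edgeR adjusted p = 6.24e-06).

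RPL7 of the pig stood at 1257, 1326 and 1273 CPM in germ-like cells and between 1768 and 5753 CPM elsewhere, and was 3.37-fold lower (log2 -1.75, SE 0.28, edgeR adjusted p = 1.46e-05). These 4 members (RPS4X, RPL10, RPL36AL and RPL7) were the ones whose germ-like sums all lay below every other pig sum. In 11 members, called or not, the germ-like sums all lay above every other pig sum. The same was not counted over all genes. RPL23, at 4420, 2893 and 4136 CPM against 4391 to 8195 CPM, overlapped by 1 sum (log2 -1.15, SE 0.23, edgeR adjusted p = 0.000253). RPL39, the third X-linked pig member, was lower by less, at 3727, 2482 and 3324 CPM against 3277 to 6260 CPM (log2 -0.76, SE 0.24, edgeR adjusted p = 0.00952).

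The pig members that were higher in germ-like cells were RPL10L, RPL26L1, RPSA, RPLP2, RPLP0, RPS21, RPS10 and RPS12. RPSA stood at 6588, 7628 and 10229 CPM against 2094 to 5238 CPM in the other types and was 2.37-fold higher (log2 1.24, SE 0.21, edgeR adjusted p = 3.21e-05). RPLP0 stood at 10377, 11773 and 14442 CPM against 2936 to 7468 CPM (2.11-fold, log2 1.08, SE 0.23, edgeR adjusted p = 0.000488), and RPLP2 at 8021, 6064 and 8174 CPM against 1989 to 4000 CPM (2.19-fold, log2 1.13, SE 0.20, edgeR adjusted p = 5.20e-05). No sum of another type reached these germ-like values. RPS12, which decreased in cattle, stood at 14740, 12779 and 14273 CPM against 5384 to 10683 CPM in the pig and was 1.44-fold higher (log2 0.53, SE 0.19, edgeR adjusted p = 0.0237).

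RPL26L1 stood at 486, 733 and 482 CPM in pig germ-like cells and between 97.5 and 231 CPM elsewhere, and was 2.77-fold higher (log2 1.47, SE 0.21, edgeR adjusted p = 2.73e-06). RPL10L stood at 23.5, 20.1 and 23.6 CPM against 0 to 6.55 CPM and was 8.46-fold higher (log2 3.08, SE 0.46, edgeR adjusted p = 5.50e-06). Relative to the RP sum 12 pig members were higher and 18 lower, where 34.9% and 15.8% of all genes were called, and the same 5 members led in each direction. On that scale RPS4X changed by -1.92 (SE 0.22), RPL10 by -1.74 (SE 0.17), RPSA by 1.42 (SE 0.16) and RPLP0 by 1.27 (SE 0.17).

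The 4 germ-like clusters of the pig differed in their RP genes. The cluster led by UCHL1, a marker of undifferentiated spermatogonia, had an RP share of 23.3%, 20.6% and 24.6% in pig 1, 2 and 3, and the cluster led by COX8C had 23.8%, 22.5% and 22.6%. The cluster led by TEX101, with SYCP1 and SYCE3 of the meiotic synaptonemal complex among its leading genes, had 18.5%, 12.6% and 16.7%, and the cluster led by ELAVL2 had 16.8%, 14.6% and 13.6%. The first pair lay above the second pair in every animal.

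RPL10L had its highest CPM in the TEX101-led cluster, at 147, 353 and 229 CPM in pig 1, 2 and 3 against 8.90 to 20.6 CPM in the other 3 germ-like clusters. The TEX101-led sums of pig 1 and 2 held 135682 and 56701 UMIs, from 59 and 8 cells. These CPM thus rest on small counts, a part of the 48 and 69 germ-like RPL10L UMIs of those pigs. X-linked RPL10 did not show a matching gap, at 2019, 2081 and 1611 CPM in that cluster and 1485 to 3165 CPM in the others. RPSA was highest in the COX8C-led cluster (9581, 13318 and 13889 CPM) and lowest in the TEX101-led cluster (3604, 4762 and 4125 CPM). RPL26L1 was highest in the ELAVL2-led cluster, at 714, 1010 and 894 CPM. RPL3L, with 47 UMIs in pig germ-like cells, stood at 16.6, 10.1 and 31.6 CPM in the ELAVL2-led cluster, at 14.7, 0 and 4.77 CPM in the TEX101-led cluster and at most 0.972 CPM in the UCHL1-led and COX8C-led clusters. Pig 2 gave 17 cells to the COX8C-led and 8 cells to the TEX101-led cluster, these clusters were found in the same cells, and no test was made between them.

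**Figure D4:**
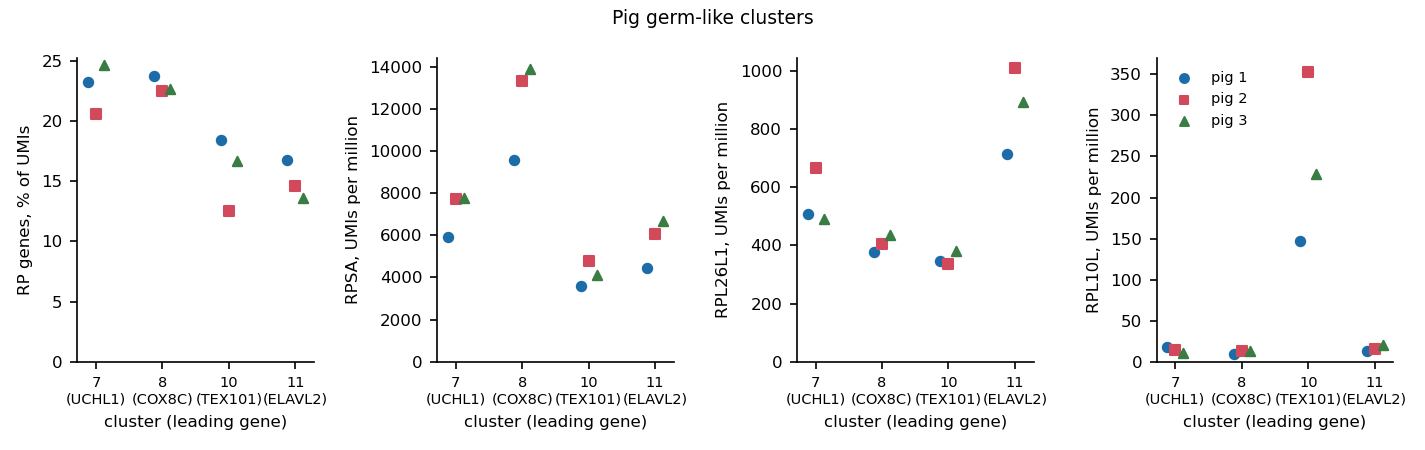
RP share of UMIs (percent) and CPM of RPSA, RPL26L1 and RPL10L in the 4 germ-like clusters of the pig, with a point for each animal. The RP share is lower in the clusters led by TEX101 and ELAVL2, RPSA peaks in the COX8C-led cluster, RPL26L1 in the ELAVL2-led cluster and RPL10L in the TEX101-led cluster.

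The copies of RP genes were also set against their partner genes, as a percentage of the UMIs of both. RPL26L1 made up 43.1%, 41.0% and 23.9% of RPL26 and RPL26L1 UMIs in germ-like cells of cattle 1, 2 and 3 and 3.07% to 7.61% in the other types, and 10.0%, 19.6% and 8.35% against 1.66% to 4.73% in pigs. RPS4Y1 made up 38.7%, 46.2% and 36.1% of RPS4 and RPS4Y1 UMIs in cattle germ-like cells and 1.02% to 6.45% elsewhere. No germ-like share of these pairs overlapped with another cell type. Copies that are close in sequence can trade reads with their partners, and the counts do not show how many reads were left out as ambiguous.

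RPL10L made up 1.12%, 0.947% and 1.09% of RPL10 and RPL10L UMIs in pig germ-like cells and at most 0.128% in the other types. A UMI of RPL10L was seen in 6.51%, 21.6% and 22.1% of germ-like cells of pig 1, 2 and 3 (exact 95% intervals 4.73 to 8.70, 16.4 to 27.6 and 19.1 to 25.4, counting error only). The 10 germ-like cells with the most held 16 of 48, 31 of 69 and 82 of 274 RPL10L UMIs in pig 1, 2 and 3. A single cell held up to 3, 13 and 19. In the other cells, among them the unnamed cluster of pig 2 described above, the shares were 0.318%, 0.474% and 1.95%, at median depths of 842, 3774.5 and 4867 UMIs against 2811, 14786.5 and 14818 in germ-like cells. RPL7L1 was not called in germ-like cells of either species (cattle log2 0.34, SE 1.22, edgeR adjusted p = 0.867, and pig -0.44, SE 0.28, edgeR adjusted p = 0.199). RPL3L was above the other pig sums by a narrow margin, at 2.58 to 3.21 against 0 to 2.57 CPM over 67 UMIs, and was not called (log2 1.29, SE 0.64, edgeR adjusted p = 0.0952, and 0.0432 with the replicate block). RPL22L1, tested in cattle alone, was not called on the TMM scale (log2 0.41, SE 0.39, edgeR adjusted p = 0.402, and 0.0313 with the replicate block). RPS27L was lower in cattle (log2 -0.77, SE 0.22, edgeR adjusted p = 0.00364) and not called in pigs (0.33, SE 0.23, edgeR adjusted p = 0.239).

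The germ-like patterns of the species were compared over the 54 members tested in both. Members higher in germ-like cells of both were RPL10L, RPL26L1 and RPSA on the TMM scale, which are 60% of the 5 in cattle and 37.5% of the 8 in pigs. The cattle call of RPL10L rests on 1 cell, on this scale and relative to the RP sum. All 16 pig decreases were also decreases in cattle, where they made up 41.0% of 39. Among the 16, RPL35A stood at no more than 57.7 CPM in any pig sum. As 39 of the 54 members were lower in cattle, most of any set of members would overlap with them. The overlap between species was not counted over all genes on either scale. RPLP2 and RPS12 were called in opposite directions. Relative to the RP sum 7 members were higher in both species (RPL10L, RPL26L1, RPL35, RPL7A, RPLP0, RPS10 and RPSA) and 10 were lower in both (RPL10, RPL11, RPL23, RPL27A, RPL37, RPL6, RPL7, RPS23, RPS3 and RPS9), and RPS12 alone was opposite. Across members, which share libraries and are not replicates, the log2 changes of the species had Pearson's r of 0.744 relative to the RP sum, and 0.633 without RPL10L.

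**Figure D5:**
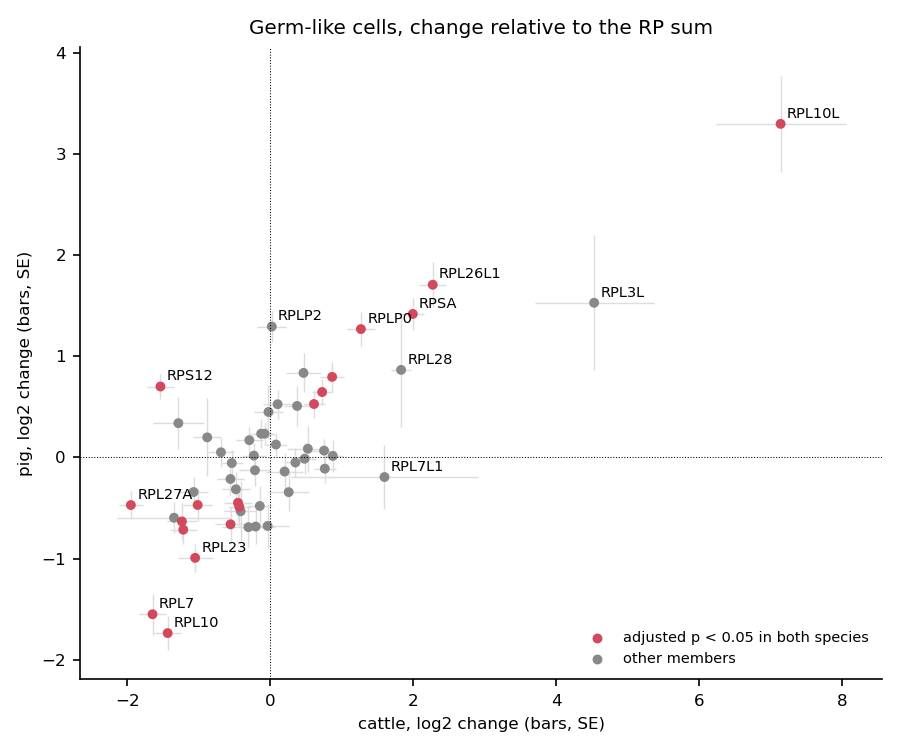
Log2 change of each shared RP gene in germ-like cells relative to the RP sum, cattle on the horizontal and pig on the vertical axis, with SE bars and members called in both species in red; RPL17, with 41 UMIs in pig, is not drawn. RPSA, RPL26L1 and RPLP0 lie at the upper right and RPL7 and RPL10 at the lower left, whereas RPS12 lies at the upper left; the cattle value of RPL10L rests on 1 cell.

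An interaction term, fitted over 12806 genes and read for the 55 shared members, tested whether the germ-like change differed between cattle and pigs. The paper describes spermatogonia in both species and early prophase spermatocytes in the pig tissue. Germ-like cells formed 1 cluster in cattle and 4 in pigs. The mix of germ cell stages may thus differ between the species, and its part was not tested. The germ-like change was lower in cattle than in pigs for 32 members and higher for 0, where 6.64% and 11.3% of all genes were called, with a median of -1.31 for RP genes and 0.34 for all genes. At an unadjusted p under 0.05 the edgeR counts were 42 lower and 0 higher, a threshold at which all genes were not counted. The count of lower members was 19 without cattle 2, 20 without cattle 3 and 21 without pig 3. With the RP sum of the shared members as library size, a fit chosen after the first had been seen, 7 members were lower and 4 higher, where 1.48% and 36% of all genes were called, and the RP median was -0.02. The 7 were RPS12 (log2 -2.25, SE 0.24, edgeR adjusted p = 1.70e-09), RPL27A (-1.50, SE 0.22, edgeR adjusted p = 5.05e-07), RPLP2 (-1.29, SE 0.28, edgeR adjusted p = 0.000272), RPS29, RPL10A, RPS26 and RPL26, and RPS18, RPS16 and RPL10L were among the 4. The RPL10L value rests on the 1 cell of cattle 3 named above, and its TMM interaction was -5.77 without cattle 3. RPL10A was counted at only 94.3 to 555 CPM in pig sums other than germ-like, against 1549 to 4620 CPM in those of cattle. The interaction of RPSA (log2 -0.73, SE 0.36, edgeR adjusted p = 0.180, and 0.0449 with the replicate block) and RPL26L1 (-0.71, SE 0.32, edgeR adjusted p = 0.117, and 0.0180 with the block) changed sign on the RP scale, to 0.56 and 0.55.

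Germ-like cells belong to the mean that each other type was set against, so members that were low or high in them move the changes below. Outside the germ line, cattle lymphocyte-like cells stood out. In these cells 71 of 82 members were higher and 0 lower by edgeR (74 and 0 at an unadjusted p under 0.05), where 10.9% and 7.9% of all genes were called, and the median RP change was 1.14 against -0.08 for all genes. RPL22L1, a copy of RPL22, stood at 143, 592 and 486 CPM in lymphocyte-like cells (3.16-fold higher, log2 1.66, SE 0.36, edgeR adjusted p = 0.000999), a range that overlapped with germ-like cells at 111, 450 and 561 CPM. RPLP1 of the stalk stood at 12223, 17778 and 22091 CPM, above its 5508 to 10013 CPM in all other types (log2 1.64, SE 0.23, edgeR adjusted p = 4.70e-06). RPL8 stood at 9033, 9427 and 7118 CPM and was 3.06-fold higher (log2 1.61, SE 0.19, edgeR adjusted p = 2.25e-07). The members not called were RPL10L, RPL26L1, RPL30, RPL38, RPL39, RPL3L, RPL7L1, RPL9, RPS19BP1, RPS27L and RPS4Y1. The count was 34 without cattle 2 and 37 without cattle 3. In pigs, with 152 lymphocyte-like cells, 0 members were called by edgeR in either direction, where 4.49% and 0.477% of all genes were, and 0 members had an unadjusted p under 0.05.

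Cattle Sertoli-like cells, the somatic cells that nurse the germ line, had 22 members higher and 1 lower, where 18.9% and 9.16% of all genes were called, and 44 and 2 with the replicate block. RPL32 stood at 9627, 10506 and 9316 CPM (2.06-fold higher, log2 1.04, SE 0.21, edgeR adjusted p = 0.000369) and RPS29 at 523, 1135 and 1549 CPM (log2 1.21, SE 0.36, edgeR adjusted p = 0.0127). RPL22L1 was the lower member, at 36.2, 68.1 and 92.6 CPM (log2 -1.61, SE 0.46, edgeR adjusted p = 0.00831), and RPL3L was higher on the few UMIs given above (log2 4.04, SE 0.77, edgeR adjusted p = 0.000377). Without cattle 2 the count was 1, without cattle 3 it was 4 and without cattle 1 it was 44. Pig Sertoli-like cells had 6 members higher and 0 lower by edgeR (14 and 0 at an unadjusted p under 0.05), where 14% and 6.81% of all genes were called. The counts were 10 and 0 with the replicate block, and 0 members were called without pig 2 and 2 without pig 3. The 3 largest were RPS4X (log2 1.02, SE 0.22, edgeR adjusted p = 0.00125), RPL7 (0.96, SE 0.23, edgeR adjusted p = 0.00291) and RPL36AL (0.85, SE 0.23, edgeR adjusted p = 0.00833), the genes that were low in germ-like cells, which belong to the mean that Sertoli-like cells were set against.

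Cattle Leydig-like cells, which make androgens, had 18 members higher and 0 lower by edgeR (27 and 1 at an unadjusted p under 0.05), where 12.6% and 5.28% of all genes were called. The counts were 3 higher and 5 lower by library size alone and 46 and 1 with the replicate block, and 4 members were called without cattle 2 and 0 without cattle 3. RPL37A stood at 9635, 11113 and 9738 CPM (log2 1.04, SE 0.23, edgeR adjusted p = 0.00151) and RPS19BP1 at 183, 192 and 116 CPM (log2 1.02, SE 0.22, edgeR adjusted p = 0.00140). Pig Leydig-like cells had 1 member higher and 5 lower, where 9.37% and 4.14% of all genes were called, and 0 higher and 2 lower with TMM factors computed without RP and mitochondrial genes. Without pig 2 the count was 0 and without pig 3 it was 1. RPS4X was the higher one (log2 0.80, SE 0.22, edgeR adjusted p = 0.0156), and RPLP0 (-0.94, SE 0.27, edgeR adjusted p = 0.0215), RPS20 (-0.84, SE 0.21, edgeR adjusted p = 0.00646) and RPL15 (-0.75, SE 0.25, edgeR adjusted p = 0.0443) led the lower ones. Of these, RPS4X was lowest and RPLP0 highest in germ-like cells, which belong to the mean used here. RPS20 stood at 7110, 5799 and 5297 CPM in pig Leydig-like cells, below all other pig sums, of which the lowest was 8631 CPM.

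Among the cattle myoid-like clusters, those of 1193 and 1166 cells had TCF21 and DCN, but not ACTA2 or TAGLN, among their leading genes. Cattle myoid-like cells had 6 members higher and 0 lower by edgeR (13 and 1 at an unadjusted p under 0.05), where 13.6% and 5.16% of all genes were called. The counts were 18 and 4 with the replicate block, 2 without cattle 2 and 1 without cattle 3. RPL10 stood at 12433, 12618 and 10462 CPM (2.18-fold higher, log2 1.12, SE 0.20, edgeR adjusted p = 0.000102), in the range of lymphocyte-like cells at 11057 to 13190 CPM, and RPS4 (log2 0.94, SE 0.21, edgeR adjusted p = 0.00183) and RPS23 (0.86, SE 0.27, edgeR adjusted p = 0.0259) followed. Pig myoid-like cells, tested in pigs 2 and 3 alone, had 0 members called by edgeR in either direction, where 10.2% and 0.688% of all genes were, 0 higher and 3 lower at an unadjusted p under 0.05, and 1 lower with the replicate block.

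Cattle macrophage-like cells had 0 members higher and 24 lower by edgeR (0 and 46 at an unadjusted p under 0.05), where 8.76% and 3.56% of all genes were called, with an RP median of -0.64 against -0.35 for all genes. The count was 1 higher and 63 lower with the replicate block and 13 with TMM factors computed without RP and mitochondrial genes. It was 40 without cattle 1, 0 without cattle 2 and 0 without cattle 3. RPL35 stood at 2089, 2276 and 2196 CPM (log2 -1.14, SE 0.28, edgeR adjusted p = 0.00525), below all other cattle sums, of which the lowest was 3051 CPM. RPL7A (log2 -1.10, SE 0.25, edgeR adjusted p = 0.00210) and RPS18 (-1.06, SE 0.25, edgeR adjusted p = 0.00311) followed. In pig macrophage-like cells 3 members were higher and 0 lower by edgeR (10 and 0 at an unadjusted p under 0.05), where 11.5% and 5.22% of all genes were called. The counts were 8 and 0 with the replicate block and 2 higher and 3 lower by library size alone, and 1 without pig 2 and 1 without pig 3. RPL10 stood at 6689, 9018 and 7860 CPM there (log2 0.95, SE 0.21, edgeR adjusted p = 0.00182), RPL26 was 1.57-fold higher (log2 0.65, SE 0.22, edgeR adjusted p = 0.0462), and RPL17 (log2 3.91, SE 1.13, edgeR adjusted p = 0.0177) rested on 41 UMIs in all pig cells.

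Cattle endothelial-like cells, 136 in all, had RPL28 (log2 -0.93, SE 0.25, edgeR adjusted p = 0.0232) and RPS16 (-0.83, SE 0.25, edgeR adjusted p = 0.0429) lower and 0 members higher (13 and 0 at an unadjusted p under 0.05), where 1.99% and 4.59% of all genes were called. This turned to 5 higher and 0 lower by library size alone, was 0 and 13 with the replicate block, and 0 without cattle 2 and 0 without cattle 3. Pig endothelial-like cells had 3 members higher and 0 lower by edgeR (8 and 0 at an unadjusted p under 0.05), where 12.3% and 4.54% of all genes were called. The counts were 5 and 0 with the replicate block and 1 without pig 2. RPL7L1 stood at 130 and 151 CPM in pigs 2 and 3, above all other pig sums (log2 1.25, SE 0.29, edgeR adjusted p = 0.00240), RPL10 at 8888 and 9419 CPM (log2 1.04, SE 0.25, edgeR adjusted p = 0.00316), and RPL17 (log2 3.14, SE 1.08, edgeR adjusted p = 0.0487) rested on the same 41 UMIs.

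Other genes of the pathway were read from fixed lists in the germ-like comparison, where 40.8% of all genes were higher and 14.9% lower in cattle and 30.4% and 20.4% in pigs. Of the factors that build ribosomes in the nucleolus, 22 of 34 were higher and 1 lower in cattle (list median 0.92 against 0.75 for all genes), and 17 of 27 were higher and 2 lower in pigs (0.74 against 0.24). BOP1 (log2 2.03 in cattle and 0.84 in pigs), PES1 (1.99 and 0.74), NOP58 (1.75 and 1.47) and POLR1C, a subunit of RNA polymerases I and III (1.39 and 1.45), were called in both. NOP10 was lower in both (-0.73 and -0.65). The mitochondrial ribosomal proteins, which build the separate ribosome of that organelle, had 41 of 77 higher and 15 lower in cattle (median 0.69, below the 0.75 of all genes) and 30 of 60 higher and 1 lower in pigs (median 0.60 against 0.24). The share of lower mitochondrial ribosomal proteins in cattle was near that of all genes.

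Of the initiation factors 13 of 30 were higher and 4 lower in cattle (median 0.11 against 0.75 for all genes) and 3 of 24 higher and 5 lower in pigs (median -0.06 against 0.24). Both cattle shares and the share of lower factors in pigs were near those of all genes, and the share of higher factors in pigs was below it. EIF3J was higher (log2 2.33 and 1.95) and EIF3E (-2.23 and -0.92) and EIF3F (-1.94 and -1.09) were lower in both species. Of the ribosome-associated genes 0 of 7 were higher and 4 lower in cattle (FAU, BTF3 and SERBP1 among them, median -0.78), and 0 of 4 higher and 2 lower in pigs (BTF3 and TPT1, median -0.60). FAU encodes a ribosomal protein fused to a ubiquitin-like protein and lies outside the name rule. Of the 6 genes tested from the elongation factor list in cattle, EEF1G (log2 -1.84) and EEF2 (-0.62) were lower and EEF1E1 (0.66) and EEF1A2 (4.66) higher. The change of EEF1E1 was below the 0.75 of the median gene. EEF1A2 stood at only 3.37, 1.53 and 2.14 CPM in the germ-like sums, so that its fitted change rests on few UMIs. In pigs 0 of 4 elongation factors were called by edgeR. Of the genes that control translation of TOP mRNAs 3 of 9 were higher and 1 lower in cattle, and 1 of 8 higher and 2 lower in pigs, lists too short to be read against the shares of all genes.

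Cell division genes were higher for 6 of 8 in cattle germ-like cells (TOP2A, BIRC5, CENPF, CCNB1, PCNA and TYMS) and for 3 of 8 in pigs (BIRC5, CCNB1 and TYMS), with 0 lower in both. The pig share of higher genes was close to that of all genes given above. Their part in the RP changes was not tested. In cattle lymphocyte-like cells all 7 ribosome-associated genes were higher, as were 8 of 34 ribosome biogenesis genes and 5 of 8 cell division genes, with 0 lower in each list, where 10.9% of all genes were higher and 7.9% lower.

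Across the 21 cattle sums, the genes whose log2 CPM followed the RP share closely included KLRK1 (Pearson's r = 0.828), SSR4 (0.813), XCL1 (0.801), PRKCH (0.798) and C17orf67 (0.795). KLRK1 and XCL1 are genes of lymphocytes, the type with the highest share. Across the 19 pig sums TCEA1 (0.811), TGS1 (0.792), DDX21 (0.780), NCL (0.774) and FAXDC2 (0.772) were among the 10 closest, of which DDX21 and NCL encode nucleolar proteins. The sums of an animal share a library, and these values are descriptions.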

How the data were processed

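Single-cell libraries of total testicular cells from 3 cattle and 3 pigs were analysed. The authors sequenced the libraries in 1 lane and deposited raw UMI counts per gene and barcode, made per the labels with Cell Ranger 2.1.0 on ARS-UCD1.2 and Sscrofa11.1. The header of the pig matrices names version 3.0.2 instead, so that the species may have been counted with different versions. The cattle tables held all 737280 possible barcodes and the pig tables held barcodes of at least 500 UMIs. Reads that map to several genes are not counted by this kind of tool, which can lower the count of RP genes with close copies.

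Cells were called above the 99th percentile of the top 3000 barcodes divided by 10, with at least 200 genes. The highest Scrublet scores were removed as doublets, 0.8% for each 1000 cells. Cells were clustered with Scanpy 1.11.5 on 2000 variable genes, 30 components, 15 neighbours and Leiden resolution 1 (igraph 0.11.9), with RP, mitochondrial RP, translation and mitochondrial genes kept out of the variable genes. A cluster was named where at least 3 markers of a type were in at least 5% of its cells and 2-fold above the median cluster (10 CPM added). After the clusters had been seen, HSD17B3 was dropped from the pig Leydig markers, and clusters led by genes of mural or dendritic cells were left unnamed. Other clusters stayed unnamed for want of 3 markers, such as a pig cluster of 1116 cells, 93.0% of them from pig 1, that was led by HSD17B3, CLU and INHA, or because genes of another type led them.

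UMI counts were summed per animal and type (at least 20 cells) and tested with edgeR 4.0.16 (R 4.3.3, quasi-likelihood, TMM, genes with at least 10 counts), with Benjamini-Hochberg adjustment over all genes at 0.05. A second fit took the RP sum as library size. DESeq2 1.42.0, other scalings and filters, other cell and cluster settings, single animals left out and the animal as replicate block were the alternatives. The script was tested on simulated data. Types of an animal come from 1 library and are thus paired. The deviations of same-numbered sums correlated with r from 0.118 to 0.815 over 63 cattle pairs and from 0.175 to 0.620 over 52 pig pairs. The animals are the replicates, with 3 in a species as the study's methods state, although the titles number 2 testes over the 3 libraries of each species. Shares of cells carry exact 95% binomial limits for counting error alone.

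Named genes were the called members with the largest change in germ-like cells (5 in each direction and fit) and in each other type (3 in each direction), the genes whose log2 CPM followed the RP share most closely (10 in each species, of which those without a symbol are not printed), and a fixed list of the stalk proteins, RPSA, X-linked members and copies. Members and lists were chosen with earlier results of these data known. Start windows came from RefSeq's Sscrofa11.1 annotation. Cattle and protein sequences were not used here, and a few named genes are not reported here.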

Additional observations from a re-analysis of the deposited data

Results flagged for a closer look

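The change in germ-like cells differed between cattle and pigs, by an interaction term in edgeR's quasi-likelihood fit with an adjusted p under 0.05, for 32 of the 55 shared RP genes. Each of them was lower in cattle, where 6.64% of all genes were called lower and 11.3% higher. The count was 19 without cattle 2, 20 without cattle 3 and 21 without pig 3. The mix of germ cell stages may differ between the species, and its part was not tested. Among the named members the difference, cattle minus pig on the log2 scale, was -3.52 for RPS12 (adjusted p = 3.47e-07), -2.78 for RPL27A (adjusted p = 2.90e-06) and -2.59 for RPLP2 (adjusted p = 9.63e-05). It was -1.42 for RPS27L, -1.40 for RPL7 (adjusted p = 0.0131), -1.38 for RPL23 (adjusted p = 0.0409) and -1.29 for RPLP0 (adjusted p = 0.0204). With the RP sum of the shared members as library size RPS12, RPL27A and RPLP2 were still called, at -2.25, -1.50 and -1.29, whereas RPS27L stood at -0.15, RPL7 at -0.11, RPL23 at -0.07 and RPLP0 at -0.02.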

How the results depend on the processing

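With 1 animal left out at a time, the members called in cattle numbered 2 to 7 higher and 39 to 66 lower in germ-like cells (14 to 25 and 15 to 26 relative to the RP sum), 0 to 14 in Leydig-like, 34 to 75 in lymphocyte-like, 0 to 40 in macrophage-like, 1 to 9 in myoid-like, 1 to 44 in Sertoli-like and 0 to 2 in endothelial-like cells. In pigs they numbered 6 to 10 higher and 4 to 17 lower in germ-like cells (10 to 13 and 12 to 15 relative to the RP sum), 0 to 4 in Leydig-like, 1 to 4 in macrophage-like, 0 to 6 in Sertoli-like, 1 to 2 in endothelial-like and 0 to 0 in lymphocyte-like and myoid-like cells. The interaction called 0 to 1 higher and 19 to 35 lower. Calls over all genes moved with the animals too. In cattle macrophage-like cells 502 of 14102 genes were lower with all animals. That count was 702 of 13948 without cattle 1, 25 of 13615 without cattle 2 and 84 of 12478 without cattle 3. The germ-like share difference ran from -10.8 to -8.63 percentage points in cattle and from -0.681 to 2.42 in pigs. With unnamed cells left out of the other cells, chosen after the data had been seen, it was -10.01 and 1.57.

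With the replicate block the members called numbered 13 in cattle endothelial-like, 47 in Leydig-like, 64 in macrophage-like, 22 in myoid-like and 46 in Sertoli-like cells, and 5 in pig endothelial-like, 8 in macrophage-like, 1 in myoid-like and 10 in Sertoli-like cells. Over all 14102 cattle genes the block called 833 higher and 584 lower, 2540 and 1432, 1573 and 1069, 2937 and 1632, and 3632 and 1948 in those types in turn. Over all 15106 pig genes it called 2239 and 1261, 2077 and 1343, 1987 and 318, and 2538 and 1379. The interaction with the block called 1 higher and 44 lower, where 2219 and 1322 of all 12806 genes were. The block also called RPL39, RPL7L1, RPLP1 and RPS27L relative to the RP sum in cattle, RPL3L in pigs, and the interaction of RPL10, RPL10L and RPL39.

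By library size alone 5 members were called in cattle endothelial-like, 8 in Leydig-like and 11 in myoid-like cells, 10 were higher in cattle germ-like and 15 in pig germ-like cells, and 10 were called in pig Leydig-like, 1 in lymphocyte-like, 5 in macrophage-like and 1 in myoid-like cells. With TMM factors computed without RP and mitochondrial genes the counts were 0 in cattle endothelial-like, 13 in macrophage-like and 11 in myoid-like cells, 7 lower in pig germ-like and 2 in pig Leydig-like cells. With no filter they were 0, 12 and 10 in those 3 cattle types and 12 lower in pig germ-like cells. A minimum of 500 UMIs gave 3 higher in cattle and 9 lower in pig germ-like cells, and RP genes among the variable genes gave 13 higher and 12 lower in pig germ-like cells. With the RP sum as library size the interaction called 4 higher and 7 lower.

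Signs turned for RPLP0 in cattle germ-like cells (-0.34 with no filter, -0.37 with the reduced TMM factors, -0.31 with 500 UMIs, -0.10 with doublets kept, -0.14 with markers set against all other cells, and -0.32 to 0.38 with 1 animal left out, lowest without cattle 2). They turned for RPL22L1 (-0.061 with no filter, -0.10 with the reduced factors, -0.075 to 0.57 with 1 animal left out, lowest without cattle 2), RPL7L1 (-0.10 with no filter, -0.13 with the reduced factors, -0.11 with 500 UMIs) and RPL10L (-2.81 with 500 UMIs). Relative to the RP sum RPLP2 ran from -0.023 without cattle 1 to 0.11 without cattle 3. In pigs RPL7L1 ran from -0.48 to 0.083 on the TMM scale and from -0.58 to 0.20 relative to the RP sum, highest without pig 3. In the interaction the signs turned for RPL10 (0.28), RPL26L1 (0.55) and RPSA (0.56) with the RP sum, RPL10L ran from -5.77 without cattle 3 to 4.85 without cattle 1, and RPL3L from -0.96 without pig 3 to 2.17 without cattle 3. The cause was not tested. Of all other values of named members 789 kept their direction and side of the threshold, 33 gained a call and 100 lost it, in the same direction. Cattle 1 and pig 1 held the fewest UMIs, which limits low genes such as RPL3L and RPL10L.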
